A study of Rattus norvegicus with 12 samples.

Results

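The genes of the respiratory chain and ATP synthase were followed across 12 RNA-seq libraries of rat PAC1 pulmonary artery smooth muscle cells. Members were chosen by symbol: names that begin with Nduf, Uqcr, Cox4 to Cox8, Sdh followed by a to d, or Atp5, together with the protein-coding genes of the mitochondrial genome. The rule used no measured value and found 116 of the 33294 genes in the count table, 103 encoded in the nucleus and 13 in mitochondrial DNA. Of these, 3 nuclear symbols (Ndufb4l1-ps1, Cox6c-ps1 and Cox8c) had no count in any library.

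The respiratory chain passes electrons from NADH and succinate to oxygen through complexes I to IV, and ATP synthase (complex V) uses the proton gradient that results. Complexes I, III, IV and V are built from subunits of both genomes, whereas complex II is entirely nuclear encoded. Mitochondrial DNA is transcribed into long precursors that are cut into single messages, and ND6 alone among the protein-coding genes lies on the opposite strand from the others. Nuclear members are transcribed one by one, and several complex IV subunits exist as a widely expressed form and a form restricted to some tissues or to low oxygen.

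PAC1 is an established rat line, kept either in a more differentiated state (PAC1-D, split once a week at a dilution of 1:10) or in a more proliferative state (PAC1-P, split at 1:20, more often). D1 was PAC1-D with control siRNA, and P was PAC1-P with control siRNA. RBPMS KD1 was PAC1-D with siRNA against the RNA-binding protein RBPMS, and MBNL KD was PAC1-D with siRNAs against MBNL1 and MBNL2 together. Each group had 3 libraries, and every group received 90 pmol siRNA in a pair of reverse transfections, so the comparisons with D1 are between transfected cells. The labels give 200000 cells per well, a second transfection after 24 h and harvest 48 h later, while the study's methods give 350000 (PAC1-D) or 250000 (PAC1-P) cells, siRNA renewed at 48 h and lysis at 120 h. All libraries come from 1 cell line, and the study's methods call replicates independent and biological, while the labels do not say whether these libraries came from separate cultures. The p-values measure the spread between these samples. Below, each change is a log2 fold change with its standard error (SE) over 3 libraries per group, from the quasi-likelihood test of edgeR, with p adjusted by the Benjamini-Hochberg method.

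Libraries held 80842635 to 90771289 counts, and the shallowest was MBNL KD replicate 3. The targeted genes carried the labels' direction. Rbpms averaged 13324 scaled counts in D1, 842 in P, 3332 in RBPMS KD1 and 11132 in MBNL KD. Mbnl1 averaged 30783 in D1 and 7321 in MBNL KD, and Mbnl2 15990 and 4741. A scaled count is a gene's count divided by the library's TMM-adjusted size relative to the geometric mean of all 12. The 8 smooth muscle markers, all detected, summed to 870323 to 914828 scaled counts in D1, 18716 to 19889 in P, 433760 to 449208 in RBPMS KD1 and 694966 to 705328 in MBNL KD, although in MBNL KD Myh11 (6616 against 4563 in D1) and Cnn1 (1844 against 1700) averaged more than in D1. The 5 endothelial markers summed to 66.2 to 72.4 in D1, 482 to 600 in P, 162 to 163 in RBPMS KD1 and 83.2 to 126 in MBNL KD, with Cdh5 at 0 in all groups but P. The 5 leukocyte and macrophage markers summed to 77.4 to 97.9 in D1, 83.0 to 135 in P, 86.0 to 119 in RBPMS KD1 and 127 to 136 in MBNL KD, with Ptprc at 0 in D1 and MBNL KD. The 4 epithelial markers, nearly all Krt8, summed to 3154 to 3309 in D1, 7129 to 7397 in P, 3448 to 3677 in RBPMS KD1 and 4763 to 4846 in MBNL KD. The part of these markers in the differences from D1 described below was not tested. In bulk RNA, fewer cells of a kind and less RNA per cell cannot be told apart.

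The mitochondrially encoded members took their largest share of counts in RBPMS KD1, and the nuclear members theirs in MBNL KD. The 13 mitochondrial genes held 3.57%, 3.80% and 3.66% of all counts in D1, 3.81%, 3.76% and 3.77% in P, 4.17%, 4.63% and 4.52% in RBPMS KD1 and 4.07%, 4.07% and 3.99% in MBNL KD. Every library of both knockdowns lay above every D1 library in this summed share, and P overlapped D1. In MBNL KD the rise did not extend across the 13 genes. By the test below, 3 of them were higher than D1, 5 lower and 5 neither, with a median log2 fold change of -0.010. COX1, the most abundant of them, averaged 1593357 after scaling in MBNL KD, against 1402044 for D1. Whether the share rises without COX1 was not tested. The 103 nuclear genes held 0.871% ± 0.0066 (SD, n = 3) in D1, 0.950% ± 0.0096 in P, 0.864% ± 0.011 in RBPMS KD1 and 0.994% ± 0.011 in MBNL KD. Here P and MBNL KD lay above D1 without overlap, and RBPMS KD1 overlapped D1. Per nuclear count there were 4.22 ± 0.15 (SD, n = 3) mitochondrial counts in D1, 3.98 ± 0.032 in P, 5.14 ± 0.28 in RBPMS KD1 and 4.07 ± 0.070 in MBNL KD. RBPMS KD1 replicate 1, at 4.82, was the lowest of its group and still above the highest D1 library, at 4.39. These shares and ratios are descriptions over the members and were given no test. Shares of all counts also follow the other abundant genes, and the 10 most abundant genes of each library took 10.6% to 10.9% of counts in D1, 8.14% to 8.50% in P, 11.8% to 12.2% in RBPMS KD1 and 11.4% in each MBNL KD library.

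**Figure D1:**
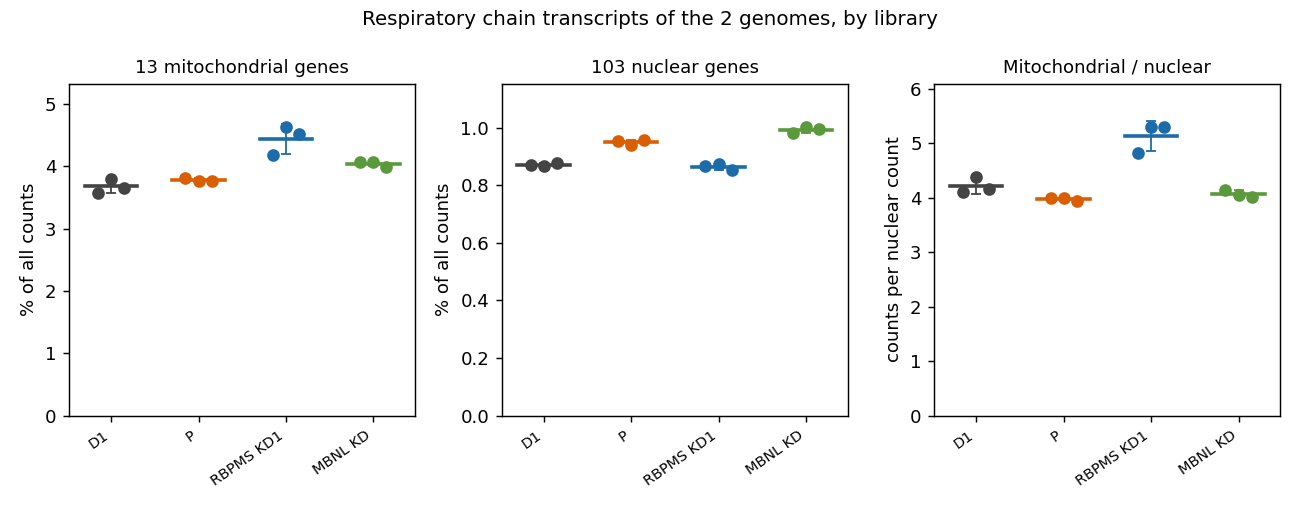
Each point is 1 library, bars are group means and whiskers 1 SD (n = 3). The panels show, from left, mitochondrial members as a percentage of all counts, nuclear members as a percentage of all counts, and mitochondrial counts per nuclear count, which is highest in RBPMS KD1 at 4.82 to 5.30.

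In RBPMS KD1 all 13 mitochondrially encoded genes were higher than in D1 at an adjusted p under 0.05, although COX1 was lower under quantile normalization (-0.17) and in the deposited normalised values (-0.26), and 12 were higher with DESeq2. For comparison, 29.5% of the 15904 genes tested were higher and 29.5% lower by the same rule, and the median log2 fold change was 0.29 for the mitochondrial genes and 0.0043 for all genes. The range ran from 0.11 for ND5 to 0.45 for ND2, so none reached the larger threshold of a log2 fold change beyond 1. ND2, a core subunit of complex I, had scaled counts of 172974, 181849 and 178393 in D1, 199785, 202934 and 200579 in P, 221338, 260666 and 245814 in RBPMS KD1 and 205920.3, 200506 and 189392 in MBNL KD. The 3 RBPMS KD1 libraries were above all the others for this gene, and it was higher than in D1 (0.45 ± 0.036 SE, adjusted p = 9.99e-12). CYTB, the cytochrome b of complex III, had scaled counts of 316356, 340884 and 321001 in D1, 225729.6, 230708 and 233316 in P, 369094, 417283 and 397953 in RBPMS KD1 and 299422, 293883 and 277807 in MBNL KD. It was highest in RBPMS KD1 (0.28 ± 0.033 SE, adjusted p = 2.57e-08), and the groups did not overlap there. ND5, another complex I subunit, changed least. Its scaled counts were 155633, 171113 and 161381 in D1 and 163602, 182957 and 177913 in RBPMS KD1, and these ranges overlapped (0.11 ± 0.033 SE, adjusted p = 0.00777). ND5 did not pass the threshold with DESeq2 (adjusted p = 0.153), without D1 replicate 1 (0.0862) or without RBPMS KD1 replicate 2 (0.0955).

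In MBNL KD the mitochondrial genes moved in both directions. COX1, COX3 and ND2 were higher than in D1 and ND4L, ND4, ND5, ND6 and CYTB lower, with a median of -0.010, against 33.8% of all 16053 genes tested higher, 33.7% lower and a median of 0.0099. ND2 did not pass in the deposited normalised values (0.052, adjusted p = 0.232 with limma). The 5 lower genes are those at the end of the gene order, after ND3. COX3, a core subunit of complex IV, had scaled counts of 323101, 375277 and 346533 in D1 and 426469, 418964 and 409215 in MBNL KD, and all MBNL KD libraries were above all D1 libraries (0.27 ± 0.029 SE, adjusted p = 2.94e-09). COX1, the catalytic subunit of complex IV, had scaled counts of 1379984, 1429196 and 1396952 in D1 and 1602034, 1611882 and 1566156 in MBNL KD. It was higher without overlap (0.19 ± 0.013 SE, adjusted p = 2.98e-13), but lower under quantile normalization (-0.16) and in the deposited normalised values (-0.26). ND5 had scaled counts of 155633, 171113 and 161381 in D1 and 124534, 127931 and 124330.2 in MBNL KD, and it fell without overlap (-0.37 ± 0.026 SE, adjusted p = 9.59e-14). ND6, encoded on the other strand, was also lower (-0.29 ± 0.034 SE, adjusted p = 1.42e-08). The strand setting of the counts is not given, so reads counted at ND6 could come from either strand.

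Within the mitochondrial counts alone, where no scaling between the genomes enters, 8 genes had a lower share in every MBNL KD library than in every D1 library. These were the 5 genes after ND3 and also ND1, ATP8 and ATP6, which lie before it. ND1 made up at most 4.06% in MBNL KD and 4.22% to 4.35% in D1, ATP8 0.182% to 0.191% and 0.195% to 0.210%, and ATP6 8.80% to 8.94% and 9.24% to 9.44%. COX1, COX3 and ND2 had a higher share without overlap. Of the 13 genes' summed counts, ND5 made up 4.73%, 4.85% and 4.77% in D1, 4.81%, 5.02% and 4.90% in P, 4.29%, 4.30% and 4.33% in RBPMS KD1 and 3.42%, 3.54% and 3.52% in MBNL KD. The MBNL KD libraries had the lowest share of ND5, and RBPMS KD1 was also below D1. COX1 made up 41.9%, 40.5% and 41.3% in D1, 39.7%, 38.6% and 39.0% in P, 39.5%, 39.2% and 39.5% in RBPMS KD1 and 44.0%, 44.6% and 44.3% in MBNL KD, highest in MBNL KD and lower in P and RBPMS KD1 than in D1. CYTB made up 9.62%, 9.66% and 9.49% in D1, 7.19%, 7.45% and 7.45% in P, 9.68%, 9.81% and 9.69% in RBPMS KD1 and 8.22%, 8.13% and 7.86% in MBNL KD, lowest in P and next lowest in MBNL KD. ND2 made up 5.26%, 5.15% and 5.27% in D1, 6.36%, 6.55% and 6.41% in P, 5.80%, 6.13% and 5.99% in RBPMS KD1 and 5.65%, 5.55% and 5.36% in MBNL KD, lowest in D1. Shares follow transcript length, so they are compared between groups only. ATP8 with ATP6 and ND4L with ND4 overlap on the genome, and how reads in the overlaps were assigned was not given.

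**Figure D2:**
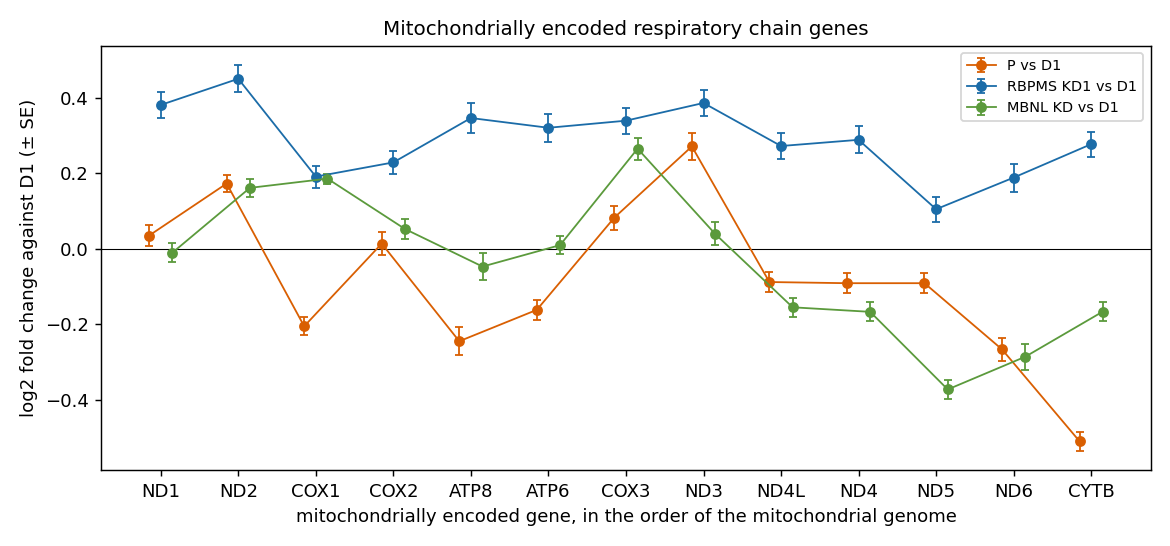
Log2 fold change against D1 (points, with whiskers of 1 SE, 3 libraries per group) of the 13 mitochondrially encoded genes, placed in their order on mitochondrial DNA. RBPMS KD1 lies above 0 throughout, from 0.11 to 0.45, and MBNL KD lies below 0 from ND4L to CYTB. Under quantile normalization COX1 turned below 0 in both knockdowns, and ATP6, ND4, ND5 and CYTB turned above 0 in P.

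P differed from D1 in the mitochondrial genes by a direction that depended on the scaling. With TMM, 3 (ND2, COX3 and ND3) were higher and 8 lower, with a median of -0.091, against 40.4% of all 16814 genes tested higher, 37.6% lower and a median of 0.020. With quantile normalization 8 were higher and 2 lower, and the median moved to 0.31 while that of all genes moved to -0.059. COX3 did not pass with DESeq2 (adjusted p = 0.205), without D1 replicate 1 (0.443), without D1 replicate 3 (0.0659) or without P replicate 1 (0.118). ND2 and ND3 kept their direction and CYTB did not: it was lower with TMM (-0.51 ± 0.026 SE, adjusted p = 1.45e-18), and its log2 fold change was 0.024 with quantile normalization. CYTB relative to the other mitochondrial genes was lower in P in all 3 libraries, by its shares of the 13 genes' counts.

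Between the knockdowns, 12 of the 13 mitochondrial genes were lower in MBNL KD than in RBPMS KD1 and none was higher, against 35.1% of 16111 genes higher and 34.5% lower. The median log2 fold change was -0.40 for these genes and 0.012 for all genes. COX1 did not pass the test (-0.01 ± 0.020 SE, adjusted p = 0.676), and the lowest was ND5 (-0.48 ± 0.028 SE, adjusted p = 1.15e-15). With quantile normalization and in the deposited normalised values 11 were lower, as COX3 did not pass (-0.0086, adjusted p = 0.507, and -0.048, adjusted p = 0.350), and without RBPMS KD1 replicate 1 all 13 were. The median moved from -0.40 to -0.37 over all scalings and tools tried.

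Among the nuclear members, P differed from D1 in both directions, and the largest change was in Ndufa4l2. Of 97 nuclear members tested, 34 were higher in P (35.1%, against 40.4% of all genes tested) and 38 lower (39.2%, against 37.6%), with a median of -0.016. Only 3 passed both thresholds (adjusted p under 0.05 and log2 fold change beyond 1), Ndufa4l2 and Cox6a2 higher and Cox7b2 lower, against 27.6% of all genes tested. Cox6a2 and Cox7b2 passed the filter on low counts only through the group in which they are high, so they are given as descriptions. With at least 10 counts required in every library, Ndufa4l2 was the 1 member called.

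Ndufa4l2 encodes a relative of the complex IV subunit Ndufa4 and is known as a gene induced at low oxygen. Its raw counts were 43, 47 and 26 in D1, 3634, 3697 and 3593 in P, 14, 26 and 23 in RBPMS KD1 and 31, 26 and 29 in MBNL KD. The P libraries stood far above all 9 others, which were all under 50 counts. P was 86.5-fold higher than D1 (6.44 ± 0.087 SE, adjusted p = 7.83e-35). RBPMS KD1 was below D1 (-0.90 ± 0.35 SE, adjusted p = 0.0279), but the adjusted p was 0.0910 without D1 replicate 1, 0.131 without D1 replicate 2, 0.141 without RBPMS KD1 replicate 1 and 0.0512 without RBPMS KD1 replicate 3. Ndufa4, its widely expressed paralogue, had scaled counts of 13875, 13556 and 14239 in D1, 8992, 8638 and 8979.5 in P, 15189, 15699 and 15227 in RBPMS KD1 and 17041, 17398 and 17396 in MBNL KD. P was below every other library, at 1.57-fold lower than D1 (-0.65 ± 0.027 SE, adjusted p = 7.05e-21), and both knockdowns were above D1. The 150 bases before the start of each gene, from RefSeq on GRCr8, are printed because this pair moved in opposite directions. The windows are chr4:40975560-40975709, minus strand for Ndufa4 and chr7:65242019-65242168, plus strand for Ndufa4l2.
Ndufa4: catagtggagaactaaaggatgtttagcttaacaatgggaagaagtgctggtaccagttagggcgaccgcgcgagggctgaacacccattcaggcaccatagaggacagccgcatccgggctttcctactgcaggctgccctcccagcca
Ndufa4l2: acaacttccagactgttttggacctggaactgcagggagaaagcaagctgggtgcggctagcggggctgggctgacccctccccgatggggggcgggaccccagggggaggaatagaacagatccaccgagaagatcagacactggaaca
Neither holds the hypoxia response letters ACGTG on either strand in these bases, nor does the full 250-base window of either gene. No other form of the site was searched, and the absence of ACGTG says nothing about sites elsewhere. The letters ACGTG were in 23.9% of the 88 nuclear members with a RefSeq window and in 18.1% of 27457 genes.

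The restricted forms of the other complex IV pairs were read at low counts. Cox4i1 and its paralogue Cox4i2, a form known from lung and low oxygen, encode subunit 4. Cox4i1 had scaled counts of 31414, 31154 and 30623 in D1, 45931, 43156 and 48282 in P, 34988, 36899 and 33868 in RBPMS KD1 and 36786, 37194 and 36338 in MBNL KD, with P highest (0.55 ± 0.028 SE, adjusted p = 2.57e-18). Cox4i2 had raw counts of 23, 4 and 8 in D1, 4, 4 and 2 in P, 48, 23 and 31 in RBPMS KD1 and 23, 25 and 28 in MBNL KD. D1 replicate 1 overlapped both knockdowns. Cox4i2 passed the filter on low counts only through the knockdowns, where it is high, so its fitted log2 fold changes of 1.51 in RBPMS KD1 and 1.12 in MBNL KD are descriptions and carry no test here. No other nuclear member was past both thresholds in either comparison, where 4.68% and 10.2% of all genes were. Cox6a2, the heart and skeletal muscle form of subunit 6a, had raw counts of 6, 6 and 8 in D1, 25, 18 and 28 in P, 10, 12 and 13 in RBPMS KD1 and 4, 8 and 14 in MBNL KD, and every P library was above every D1 library, with a fitted log2 fold change of 1.69 that is a description only. The striated muscle markers Ttn, Myh6, Myh7, Tnnt2, Tnni3 and Ckm summed to 407 to 452 scaled counts in D1, 842 to 942 in P, 221 to 261 in RBPMS KD1 and 810 to 912 in MBNL KD, and 4 of the 6 averaged over 3 counts in P. Tnni3 averaged 80.4 in D1 and 654 in P, and Tnnt2 253 and 134. Their part in the Cox6a2 result was not tested. The widely expressed form Cox6a1 was lower in P (-0.16 ± 0.026 SE, adjusted p = 1.49e-06) and higher in MBNL KD (0.29 ± 0.027 SE, adjusted p = 1.38e-10). Cox7b2 had raw counts of 36, 22 and 20 in D1, 2, 0 and 2 in P, 38, 48 and 52 in RBPMS KD1 and 38, 54 and 37 in MBNL KD. Its 78 counts in D1 against 4 in P gave a ratio of 21.1 after scaling, which is a description only. Cox7b itself had scaled counts of 3463, 3503 and 3508 in D1 and 3759, 3547 and 3794 in P (0.08 ± 0.036 SE, adjusted p = 0.0460), but it missed the threshold with DESeq2 (adjusted p = 0.0512), with mitochondrial genes out of the scaling (0.0548), without the filter on low counts (0.0665) and in 5 of the 6 fits that left out 1 library (0.0859 to 0.158, all but without P replicate 2). Cox6b2 and Cox8b stayed at or under 6 counts in every library, while their partners Cox6b1 and Cox8a were lower in P (-0.15 and -0.35) and higher in MBNL KD (0.27 and 0.40). Cox7a2 followed the same order (-0.30 in P, 0.28 in MBNL KD). It had 383 to 604 raw counts, while Cox7a2l2, a copy by its name, had 5232 to 7148. Reads could be split between them, so the values of Cox7a2 are uncertain.

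**Figure D3:**
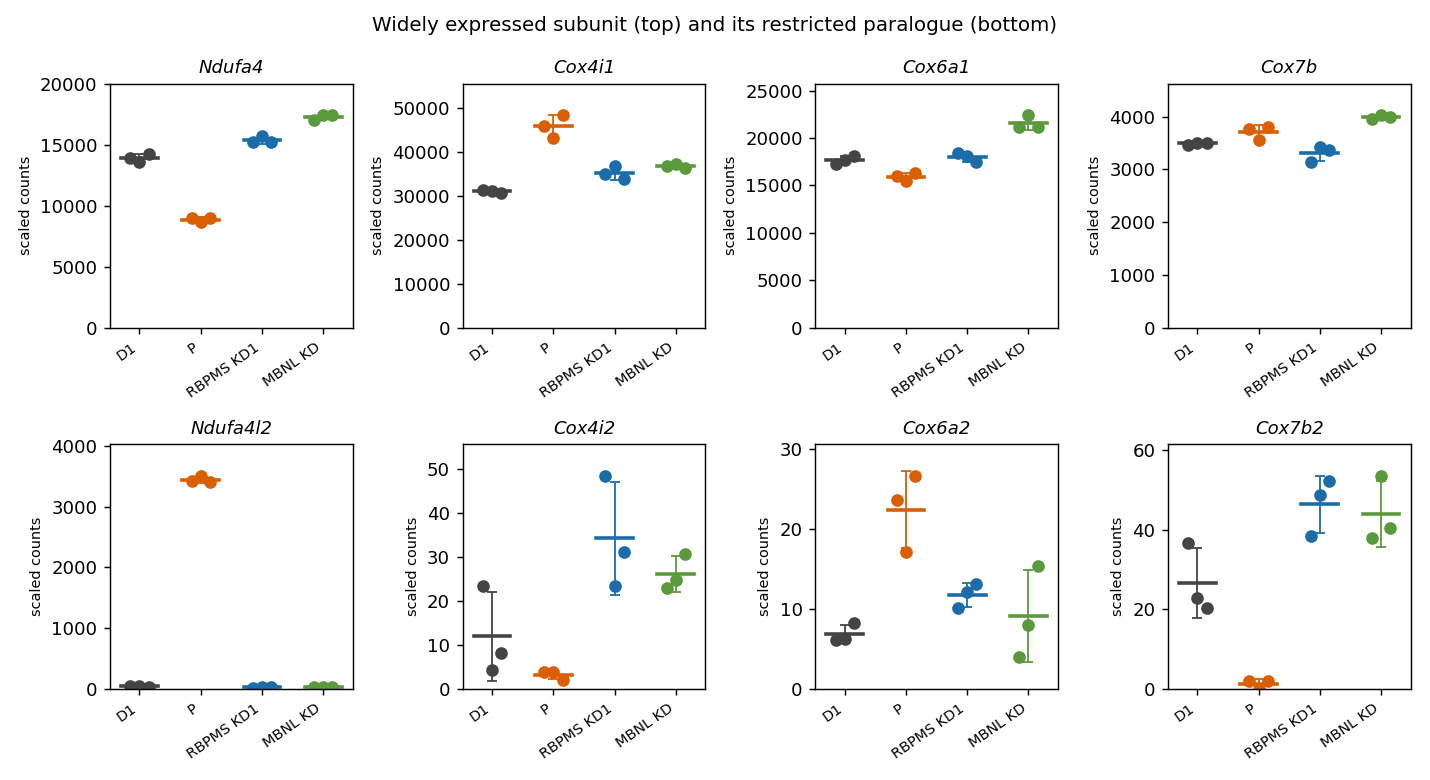
Scaled counts of 4 widely expressed complex IV subunits (top) and their restricted paralogues (bottom), with each point 1 library, bars group means and whiskers 1 SD (n = 3). Each panel has its own axis from 0, and levels are compared within a gene only. Ndufa4l2 is seen almost only in P, while Ndufa4 is lowest there, and the other 3 restricted forms rest on under 60 counts per library.

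Other nuclear subunits that differed most between P and D1 were smaller changes. In complex I, Ndufc1, an accessory subunit, had scaled counts of 1425, 1454 and 1516 in D1 and 2798, 2686 and 2861 in P. It was 1.89-fold higher in P (0.92 ± 0.044 SE, adjusted p = 5.06e-19), and Ndufb6, an accessory subunit of the membrane arm, was lower (-0.45 ± 0.034 SE, adjusted p = 7.40e-14). Ndufaf2, a factor that helps build complex I, had scaled counts of 638, 628 and 582 in D1, 355, 337 and 350.1 in P, 435, 358 and 381 in RBPMS KD1 and 818, 860.5 and 774 in MBNL KD. P and RBPMS KD1 were below D1 and MBNL KD above, with no overlap with D1 in any of the 3 groups (in P, -0.83 ± 0.082 SE, adjusted p = 5.89e-11). In complex II, Sdhb, the iron-sulfur subunit, was higher (0.21) and Sdha, the flavoprotein, lower (-0.21). In complex III, Uqcrc2, a core protein, was higher (0.21), and Uqcrfs1, the Rieske iron-sulfur protein, was lower, with scaled counts of 18439.8, 18646 and 18160.3 in D1 and 13671, 13033 and 13882 in P (-0.45 ± 0.026 SE, adjusted p = 8.75e-17). In ATP synthase, Atp5po of the stalk was higher (0.30) and Atp5mg of the membrane part lower (-0.32).

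**Figure D4:**
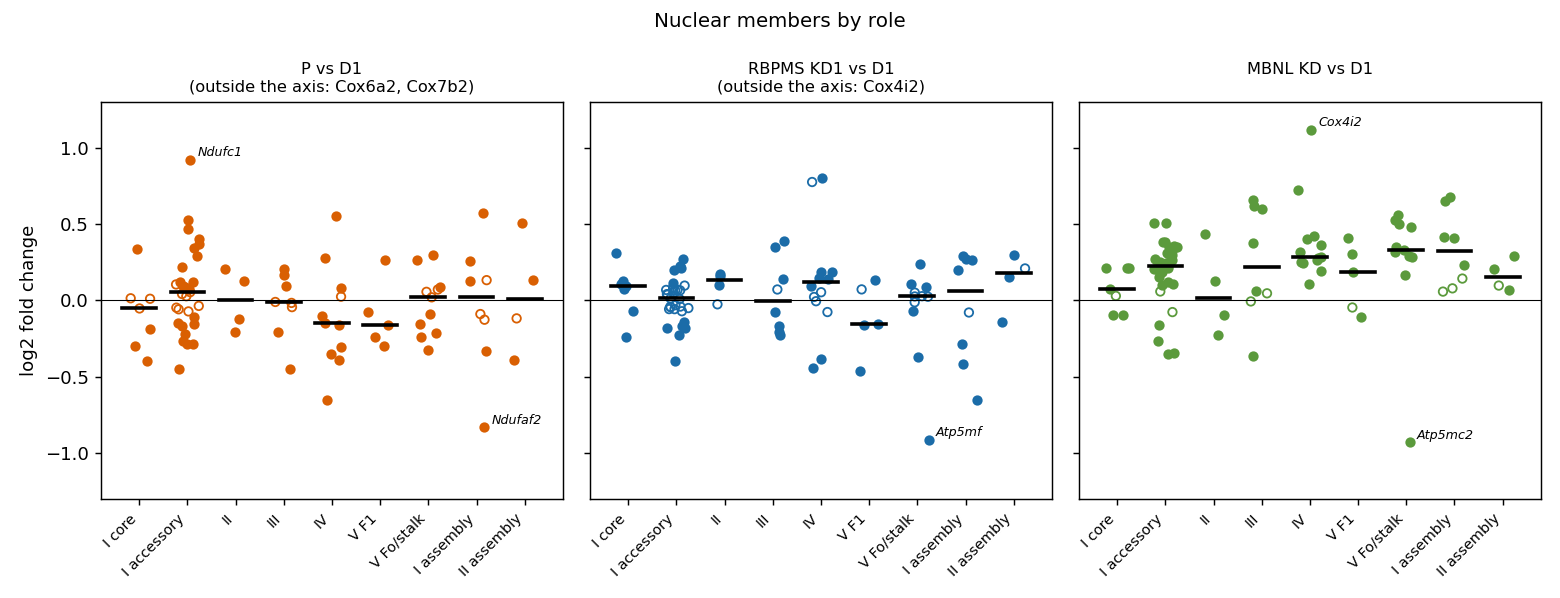
Log2 fold change of nuclear members grouped by role, with filled points at adjusted p under 0.05, open points above it and black bars the median of each role. The copies Ndufa13-ps1, Cox7a2l2 and Atp5hl1, relatives (Ndufa4l2, at 6.44 in P, among them) and the inhibitor are not drawn. Ndufa10, Ndufa10l1 and Ndufa13 are drawn as accessory subunits of complex I. Genes beyond 1.3 in either direction are named above the panel. In MBNL KD the median lies above 0 in every role, and Atp5mc2 stands alone at -0.93.

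In RBPMS KD1 the nuclear members were spread around 0. Of 98 tested, 34 were higher (34.7%) and 26 lower (26.5%), against 29.5% of all genes in each direction, with a median of 0.041. The largest decrease was in Atp5mf, subunit f of the membrane part of ATP synthase. Its scaled counts were 9056, 9102 and 9196 in D1, 8308, 8176 and 8178 in P, 5145, 4851 and 4540.0 in RBPMS KD1 and 10077, 10434 and 10224 in MBNL KD. The RBPMS KD1 libraries were below all 9 others, 1.88-fold lower than D1 (-0.91 ± 0.035 SE, adjusted p = 7.78e-19). Ndufaf2 was also lower (-0.65 ± 0.084 SE, adjusted p = 1.17e-07). Atp5f1c, Cox7c, Cox5b and Atp5pb were chosen after their values were seen. Atp5f1c, the central shaft of the ATP synthase motor, had scaled counts of 9489.7, 9673 and 9830.5 in D1 and 6732, 6994 and 7291 in RBPMS KD1 and fell without overlap (-0.46 ± 0.030 SE, adjusted p = 1.42e-13). Cox7c and Cox5b, subunits of complex IV, were lower (-0.44 and -0.38), as was Atp5pb, a stalk subunit (-0.37). In these 3 genes and in Atp5f1c the value in MBNL KD was higher than in D1 (0.25, 0.37, 0.33 and 0.30). The largest increase apart from low-count genes was in Cox7a2l, a factor for supercomplexes of III and IV, whose scaled counts were 9204, 9384 and 9108 in D1, 13259, 14106 and 13595 in RBPMS KD1 and 12224, 11732 and 11842 in MBNL KD. Both knockdowns were above D1 without overlap (in RBPMS KD1, 0.57 ± 0.028 SE, adjusted p = 2.67e-16).

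In MBNL KD most nuclear members were higher than in D1. Of 97 tested, 73 were higher, 11 lower and 13 neither, which is 75.3% higher where 33.8% of all genes were. The median was 0.24 for nuclear members, with a quartile range of 0.098 to 0.35, and 0.0099 for all genes. By role, 13 of 13 tested complex IV subunits were higher, the least of them Cox5a (0.11). Cox4i2, counted in these 13 and in the 73, passed the filter only through MBNL KD and carries no test here. The low-count Cox7b2 (adjusted p = 0.0487 with all 6 libraries) lost the threshold in 4 fits that left out 1 library (0.0648 to 0.209). It was also lost with DESeq2 (0.0668), quantile normalization (0.171), the deposited normalised values (0.147) and 1 fit of 12 libraries (0.0618). Also higher were 10 of 11 membrane and stalk subunits of ATP synthase, 25 of 31 accessory subunits of complex I and 5 of 8 subunits of complex III. Core subunits of complex I were 4 higher and 2 lower of 7, those of complex II 2 and 2 of 4, and those of the F1 motor 3 and 1 of 5. Assembly factors were higher in 5 of 8 for complex I and 3 of 4 for complex II, with none lower. MBNL KD replicate 3 was the shallowest library, and with any 1 library left out there were 66 to 73 nuclear members higher and 11 to 13 lower.

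Apart from the low-count Cox4i2 and Cox7b2, the largest increases in MBNL KD were in small subunits of complex III and in assembly factors of complex I. Uqcr10 had scaled counts of 5742, 5735 and 5904 in D1, 5999, 6157 and 6490.1 in P, 7311, 7662 and 7141 in RBPMS KD1 and 8940.3, 9498 and 8893 in MBNL KD. MBNL KD was highest, RBPMS KD1 next and neither overlapped D1 (in MBNL KD, 0.65 ± 0.029 SE, adjusted p = 2.07e-18). Uqcrq and Uqcr11, chosen after their values were seen, had log2 fold changes of 0.62 and 0.60. Ndufaf4 and Ndufaf8, chosen in the same way, are assembly factors of complex I. Ndufaf4 had scaled counts of 1953, 1913 and 2025 in D1, 1596, 1603 and 1638 in RBPMS KD1 and 3196, 3109 and 3103 in MBNL KD, so that MBNL KD was above and RBPMS KD1 below D1 (in MBNL KD, 0.68 ± 0.040 SE, adjusted p = 3.41e-15). Ndufaf8 was higher in MBNL KD (0.65 ± 0.059 SE, adjusted p = 6.08e-11). Sdhc, a membrane anchor of complex II, was higher (0.44 ± 0.024 SE, adjusted p = 5.17e-16), as were Ndufc1 (0.51) and Atp5mk, a small subunit of the ATP synthase membrane part (0.56 ± 0.057 SE, adjusted p = 5.44e-10).

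After Atp5mc2, the largest decrease among the 11 lower members was in Uqcrfs1, the Rieske iron-sulfur protein. It had scaled counts of 18439.8, 18646 and 18160.3 in D1 and 14342, 14219.7 and 14332 in MBNL KD (-0.36 ± 0.024 SE, adjusted p = 2.74e-14). Sdha had scaled counts of 16144, 16122 and 15778 in D1 and 13809.9, 13693 and 13561 in MBNL KD (-0.22 ± 0.023 SE, adjusted p = 7.53e-10). In neither gene did the groups overlap. Ndufa10l1 was lower (-0.35 ± 0.054 SE, adjusted p = 1.44e-06), and so was Ndufa10 (-0.34), but their names mark them as copies between which reads could be split, so their values are uncertain. The same holds for Ndufa13 and Ndufa13-ps1, for Cox7a2 and Cox7a2l2 and for Atp5hl1.

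Atp5mc2 moved against its own family in MBNL KD. Atp5mc1, Atp5mc2 and Atp5mc3 encode the same mature subunit c, which forms the rotating ring of ATP synthase. Atp5mc2 had scaled counts of 17600.3, 16946 and 17699.8 in D1, 17526, 17609 and 18046 in P, 19217, 19053 and 17991 in RBPMS KD1 and 9021, 9364 and 9038 in MBNL KD. All MBNL KD libraries were below all 9 others, 1.90-fold lower than D1 (-0.93 ± 0.024 SE, adjusted p = 6.32e-24). Atp5mc1 had scaled counts of 8929.7, 8549 and 9100.0 in D1 and 10898, 10932 and 10479 in MBNL KD (0.28 ± 0.026 SE, adjusted p = 8.27e-11). Atp5mc3 had scaled counts of 17237, 17427 and 17349 in D1 and 20853, 21314 and 21535 in MBNL KD (0.29 ± 0.024 SE, adjusted p = 7.96e-12). Both of these paralogues, chosen after their values were seen, were higher in MBNL KD without overlap. Gene counts do not tell apart transcripts of 1 gene, and splicing was not measured here.

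Start-site windows from RefSeq on GRCr8 were found for 88 of the 103 nuclear members. The letters CGCATGCG, the core of sites for the factor NRF1, were in 10.2% of these windows of 250 bases before the start and in 1.68% of those of all 27457 genes. The ETS letters CCGGAAG were in 28.4% of members and 8.11% of all genes. The 27457 genes were not limited to those expressed in these cells, so whether the differences are particular to the members was not tested. Both strands were searched, CGCATGCG reads the same on both, and no marked stretch overlaps another in the windows shown. Among the 65 windows of members higher in MBNL KD, 29.2% held the ETS letters, 9.23% the NRF1 letters and 29.2% ACGTG. Among the 19 windows of the other members tested there, the shares were 31.6%, 15.8% and 5.26%, the last being 1 window. Among the 32 windows of members higher in P the shares were 28.1%, 18.8% and 15.6%, and among the 53 of the others 30.2%, 5.66% and 28.3%. For RBPMS KD1 they were 36.7%, 6.67% and 33.3% of 30 windows, and 25.5%, 12.7% and 18.2% of 55. The 150 bases before the start are shown for Uqcrq (chr10:38089979-38090128, minus strand) and Atp5me (chr14:1464710-1464859, plus strand), which were higher in MBNL KD (0.62 and 0.53), and for Atp5mc2 (chr7:135678219-135678368, minus strand), which was lower. Capitals mark the NRF1 letters, the ETS letters on either strand and, once in Uqcrq, ACGTG.
Uqcrq: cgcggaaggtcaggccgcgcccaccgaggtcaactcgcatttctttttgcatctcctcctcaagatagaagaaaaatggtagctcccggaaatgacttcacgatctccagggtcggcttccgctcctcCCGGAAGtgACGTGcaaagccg
Atp5me: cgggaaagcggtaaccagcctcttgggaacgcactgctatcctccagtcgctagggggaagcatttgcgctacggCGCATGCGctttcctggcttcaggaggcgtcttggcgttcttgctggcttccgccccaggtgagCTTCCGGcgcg
Atp5mc2: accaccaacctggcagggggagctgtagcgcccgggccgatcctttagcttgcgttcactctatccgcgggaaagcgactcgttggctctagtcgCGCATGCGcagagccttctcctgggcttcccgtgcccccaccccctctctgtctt
For these 3 genes the RefSeq gene table has an outer start further upstream than the start used for the window, inside the bases shown for Atp5me, so the distances hold for the window's own start only. The NRF1 letters begin 75 bases before the start in Atp5me and 55 before it in Atp5mc2, so they were present in a member that was higher and in 1 that was lower. The ETS letters begin 22 bases before the start in Uqcrq and 11 in Atp5me. A match of letters is a description, and no binding was measured.

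Between the knockdowns, 65 of 98 nuclear members were higher in MBNL KD than in RBPMS KD1 and 14 lower, which is 66.3% and 14.3% where 35.1% and 34.5% of all genes were. The median was 0.21, against 0.012 for all genes. Past both thresholds were 3, against 11.9% of all genes. These were Atp5mf (1.08 ± 0.034 SE, adjusted p = 3.16e-22) and Ndufaf2 (1.06 ± 0.081 SE, adjusted p = 7.99e-13), higher in MBNL KD, and Atp5mc2 (-1.04 ± 0.027 SE, adjusted p = 3.85e-24), lower. Against D1, Atp5mf and Ndufaf2 were lower in RBPMS KD1 and higher in MBNL KD (0.17 and 0.41), and Atp5mc2 was lower in MBNL KD. In the deposited normalised values 1 member was called. Side by side, the median of the nuclear members was 0.21 and that of the mitochondrial members -0.40 in this comparison, and the comparisons with D1 share its 3 libraries.

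**Figure D5:**
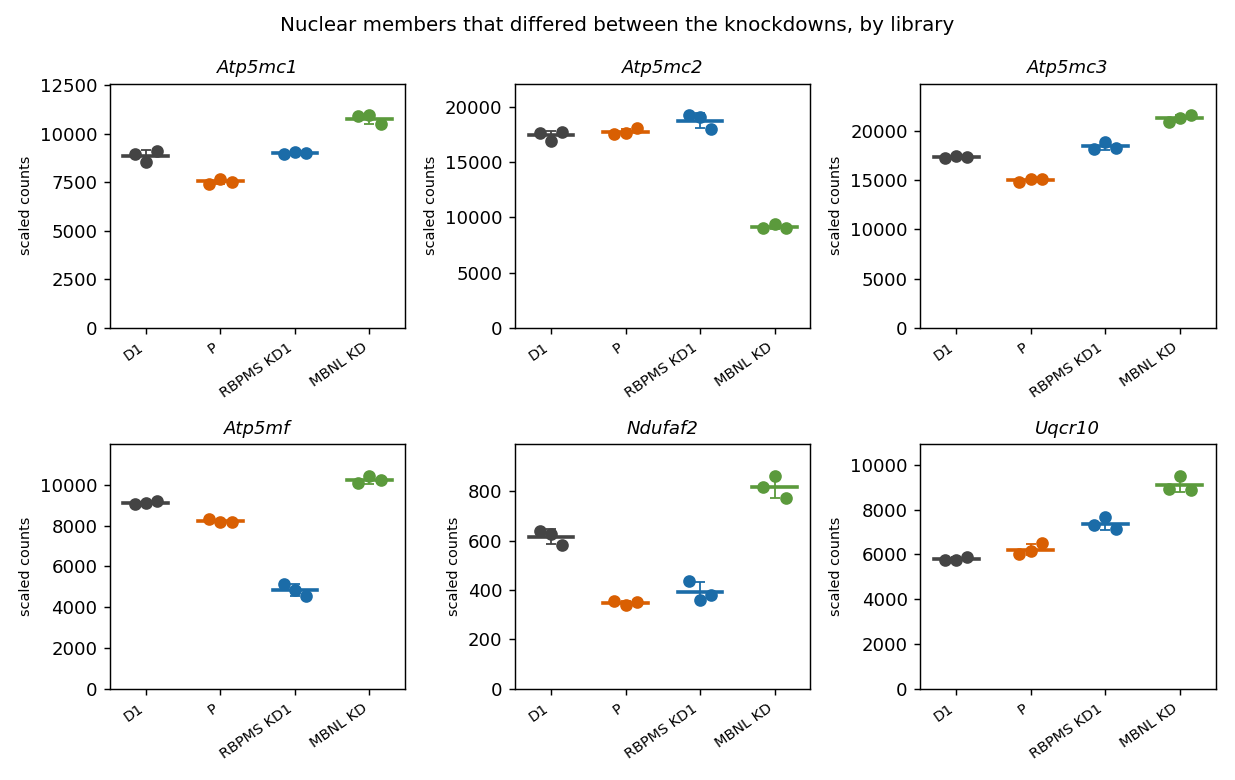
Scaled counts of 6 nuclear members by library (points), with group means (bars) and 1 SD (whiskers, n = 3), on axes that start at 0. Atp5mc2 is lowest in MBNL KD, at 9021 to 9364, while Atp5mc1 and Atp5mc3 are highest there, and Atp5mf is lowest in RBPMS KD1, at 4540.0 to 5145.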

How the data were processed

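RNA was poly(A)-selected and, per the labels, made into strand-marking libraries, while the methods name a kit without that mark. Mitochondrial messages have short tails, and ND6 is known to lack one, so selection can affect their levels. The authors kept an equal number of reads per sample, aligned them to mRatBN7.2 with STAR 2.7.11b and deposited raw read counts per gene. Counts per library exceed the number of reads kept, so mates may have been counted singly, and the strand setting is not given in the sources used here. The authors also deposited a normalised signal table (noise-filtered, quantile-normalised; 112 of the members, no value under 35), used as an alternative only.

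Counts were tested with edgeR 4.0.16 in R 4.3.3 (filterByExpr, TMM, quasi-likelihood test, 6 libraries per comparison, Benjamini-Hochberg over all genes tested), and results are called at an adjusted p under 0.05, or also at a log2 fold change beyond 1. DESeq2 1.42.0 and limma 3.58.1 served as alternatives, beside other scalings, filters of low counts, halved counts, 1 fit of all libraries, a replicate block and leaving out each library. The code was tested on simulated data. Promoter letters came from RefSeq on GRCr8, and no genome of the authors' build was used here. Members and lists were chosen with earlier results of these data known. Named were all mitochondrial members, members past both thresholds in any comparison, isoform pairs, and per complex the subunits with the largest rise and fall in P and MBNL KD. Genes outside this rule are named as chosen after their values were seen, including Atp5me, Ndufa10 and the symbols listed as copies. Same-numbered replicates did not deviate together (mean correlation of deviations -0.0058) and were not treated as pairs. No replicate pair agreed within sampling noise (chi-square per gene 3.94 to 14.9). The markers used were those of smooth muscle, leukocytes, endothelium, epithelium, striated muscle and adipocytes (the last, Adipoq, Plin1 and Ucp1, summed to under 24 scaled counts in every library).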

Additional observations from a re-analysis of the deposited data

How the results depend on the processing

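Across 10 other settings and the fits that left out 1 library, counts of nuclear members higher or lower stayed within 1.5 times. Mitochondrial genes in P depended on scaling. With quantile normalization 8 were higher and 2 lower, and in the deposited normalised values 8 and 1. Under these, ATP6 (0.35 and 0.35), ND4 (0.31 and 0.35), ND5 (0.30 and 0.32) and CYTB (0.024 and 0.038) reversed from below to above 0, and COX1 stood at 4.0e-06 with quantile normalization. COX1 also reversed in RBPMS KD1 (-0.17 and -0.26), where 1 mitochondrial gene was then lower, and in MBNL KD (-0.16 and -0.26). COX1 is among the most abundant genes, whose values these methods tie to rank. Calls past both thresholds of Cox4i2, Cox6a2 and Cox7b2 were made on under 60 counts per library. In P, 1 member (Ndufa4l2) was called with at least 10 counts in every library and 1 with halved counts. In RBPMS KD1, 2 were called with quantile normalization, 0 with at least 10 counts and 0 in the deposited normalised values, and 0 to 2 when 1 library was left out. In MBNL KD, 0 were called with quantile normalization, at least 10 counts, DESeq2 or the deposited normalised values, and 0 to 2 when 1 library was left out. Between the knockdowns, 1 was called in the deposited normalised values and 2 to 3 with 1 library left out. The cause of these losses was not tested. Per 100 counts of the other genes, mitochondrial counts were 3.82 in D1, 3.93 in P, 4.65 in RBPMS KD1 and 4.21 in MBNL KD. With subunits alone as the nuclear set, mitochondrial counts per nuclear count were 4.46 in D1, 4.22 in P, 5.47 in RBPMS KD1 and 4.32 in MBNL KD.

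With a replicate block, 3 members were called in P, 1 in RBPMS KD1, 1 in MBNL KD and 3 between the knockdowns, as without it, and Cox7b2 in MBNL KD went from an adjusted p of 0.0487 to 0.0653. Same-numbered samples correlated between -0.034 and 0.017, so the numbers were not taken as pairs. Of the values of named genes under other settings, 2471 kept direction and side of the threshold, 65 lost it, 33 gained it and 13 reversed.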

Other observations

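Genes that are not members but serve the chain were counted from lists set by function. In MBNL KD, 51 of 74 tested proteins of the mitochondrial ribosome, which translates the 13 mitochondrial messages, were higher and 11 lower (median 0.23), as were 28 and 5 of 40 further assembly factors (median 0.23), while 33.8% of all genes were higher and 33.7% lower. Cytochrome c and cytochrome c1 were both higher (median 0.40). Enzymes of the tricarboxylic acid cycle were 7 higher and 9 lower of 18 (median -0.069). Factors for copying and transcribing mitochondrial DNA were 10 higher and 1 lower of 19, those for handling its RNA 12 and 5 of 23, nuclear regulators 5 and 2 of 13, and coenzyme Q enzymes 5 and 2 of 11. The cytosolic ribosome, a list added after the data were seen, gave 25 higher and 36 lower of 83 (median -0.042). Coa5, an assembly factor of complex IV, went against its list, with scaled counts of 8825, 9033 and 9094 in D1, 10401, 10371 and 10749.8 in P, 9622, 10132 and 9743 in RBPMS KD1 and 3381, 3012 and 3153 in MBNL KD. MBNL KD was below all other libraries (-1.50 ± 0.033 SE, adjusted p = 1.35e-25).

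In RBPMS KD1, 10 of 18 enzymes of the tricarboxylic acid cycle were lower and 1 higher, where 29.5% of all genes were lower. The mitochondrial ribosome was 24 higher and 19 lower of 74 (median 0.024), where 29.5% of all genes were higher and 29.5% lower, but its protein Mrpl13 had scaled counts of 3008, 2895 and 3009.6 in D1, 1079.8, 1171 and 1094 in RBPMS KD1 and 3295, 3212 and 3229 in MBNL KD. Only RBPMS KD1 was low (-1.41 ± 0.047 SE, adjusted p = 2.83e-20), and the pseudouridine synthase Rpusd4 was lower too (-1.28 ± 0.067 SE, adjusted p = 9.27e-16). Against RBPMS KD1, MBNL KD was higher in Mrpl13 (1.54), Mrpl49 (1.14), Rpusd4 (1.09), Rrm2b (1.11) and Dmac1 (1.00) and lower in Coa5 (-1.63) and Atpaf1 (-1.01). Of the cytosolic ribosome, Rpl3l was higher (2.56) and Rplp0 lower (-1.47) in the same comparison.

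In P, the genes past both thresholds outside the members included Higd1a, a complex IV partner known to respond to low oxygen, with scaled counts of 4979, 4867 and 4969 in D1, 13495, 13481 and 13903 in P, 4585, 4603 and 4505 in RBPMS KD1 and 3563, 3620.0 and 3443 in MBNL KD. P was far above the rest (1.46 ± 0.028 SE, adjusted p = 1.05e-30), and MBNL KD was the lowest. Hsd17b10, a subunit of mitochondrial RNase P, was also higher (1.36 ± 0.029 SE, adjusted p = 4.24e-29), as was Coq8a (1.05 ± 0.065 SE, adjusted p = 4.40e-16). The factors for copying and transcribing mitochondrial DNA were 12 higher and 4 lower of 19 in P (median 0.28, against 0.020 for all genes). Past both thresholds outside the cytosolic ribosome, lower were Perm1 (-1.55), Mterf2 (-1.25, against most of that list) and Rpusd3 (-1.01). In the cytosolic ribosome list 3 genes passed both, Rpl3l lower (-1.63) and Rpl39l and Rpl10l higher, and are given as descriptions. Ppargc1a, a coactivator of mitochondrial genes, had 10, 12 and 13 counts in P and 0 in the other 9 libraries, at least 3.60-fold higher than in D1 against a floor of 3 counts per library. The mitochondrial ribosome was 35 higher and 21 lower of 74 in P (median 0.055), where 40.4% of all genes were higher and 37.6% lower.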
